A study of Homo sapiens with 12 samples.

Results

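Raloxifene and fulvestrant, given at the same dose and for the same time, were compared by PRO-seq in T47D, a human breast cancer line that expresses estrogen receptor alpha. PRO-seq sequences nascent RNA still held by engaged polymerases, so its counts follow polymerase on genes and not RNA that has built up. Promoter-proximal and gene-body polymerase were not separated here, and transcription is meant below in that sense. The comparison was chosen by label and took 4 of the series' 12 libraries, 2 treated with 100 nM raloxifene and 2 with 100 nM fulvestrant, each for 1 h after 3 days in complete medium with fetal bovine serum. Also used were 2 libraries treated with 100 nM tamoxifen for 1 h and 2 given vehicle (0.1% DMSO by volume), all in complete medium. From cells hormone-starved for 3 days, 2 libraries given 1 nM estradiol and 2 given vehicle were used, again for 1 h. Of 59410 genes in the table of counts, 23375 passed a filter on low counts and were tested.

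Estrogen receptor alpha is a ligand-activated transcription factor that binds DNA at estrogen response elements and recruits coactivators or corepressors according to the shape its ligand imposes. Fulvestrant is a steroid, an estradiol analogue with a long side chain. It blocks the receptor and promotes its degradation. Raloxifene is a nonsteroidal benzothiophene with a basic amine side chain, a selective modulator that acts as an antagonist in breast and with partial agonism in some other tissues. In complete medium, serum supplies estrogens, so an antagonist is read by how far it lowers estrogen-driven transcription.

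Library totals were 7856803 and 3682311 counts with raloxifene, against 6134826 and 5583088 counts with fulvestrant, for the libraries numbered 3 and 4 in the labels. The raloxifene pair therefore differed in depth more than the fulvestrant pair. Its libraries were also the least alike of the 6 pairs in the series, with a correlation across genes of log2 CPM of 0.976, against 0.985 for the fulvestrant pair. Levels are TMM-scaled CPM (counts adjusted for library size and composition), given for libraries 3 and 4 in that order. All 8 luminal epithelial markers were transcribed, with a summed level of 3852 to 4164 CPM (not TMM-scaled) with raloxifene and 3919 to 3934 CPM with fulvestrant. The 8 basal and mesenchymal markers summed to 44.5 to 45.4 CPM with raloxifene and 39.0 to 43.4 CPM with fulvestrant, with KRT5 at 0 in all 4 libraries. The 10 stromal, endothelial and blood markers summed to 41.6 to 50.9 CPM with raloxifene and 46.96 to 48.6 CPM with fulvestrant, with HBB at 0. Whether both libraries of a group were separate cultures is not stated, and p-values therefore reflect only the spread among these libraries, which may be technical.

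Transcription of 24 genes was higher with raloxifene than with fulvestrant, and no gene was lower (adjusted p under 0.05 after Benjamini-Hochberg correction, quasi-likelihood test of edgeR). This was 0.103% of the genes tested. The genes included the receptor cofactor genes GREB1 and NRIP1, the hormone receptor genes PGR and RARA, the transcription factor genes RUNX1, MYB and GATA4, and the secreted factors IGFBP4 and CXCL12. Differences ran from 0.33 to 1.48 on the log2 scale, with a median of 0.54, and 3 genes differed at least 2-fold. Each of the 24 had both raloxifene libraries above both fulvestrant libraries, as did 15.2% of all genes tested. The lowest count behind any of these values was 74. At an unadjusted p under 0.05, 744 genes (3.18%) were higher and 402 (1.72%) lower by edgeR's test. At an adjusted p under 0.05, DESeq2 called 24 higher and 0 lower, and 21 of the higher ones were the same genes as with edgeR.

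**Figure D1:**
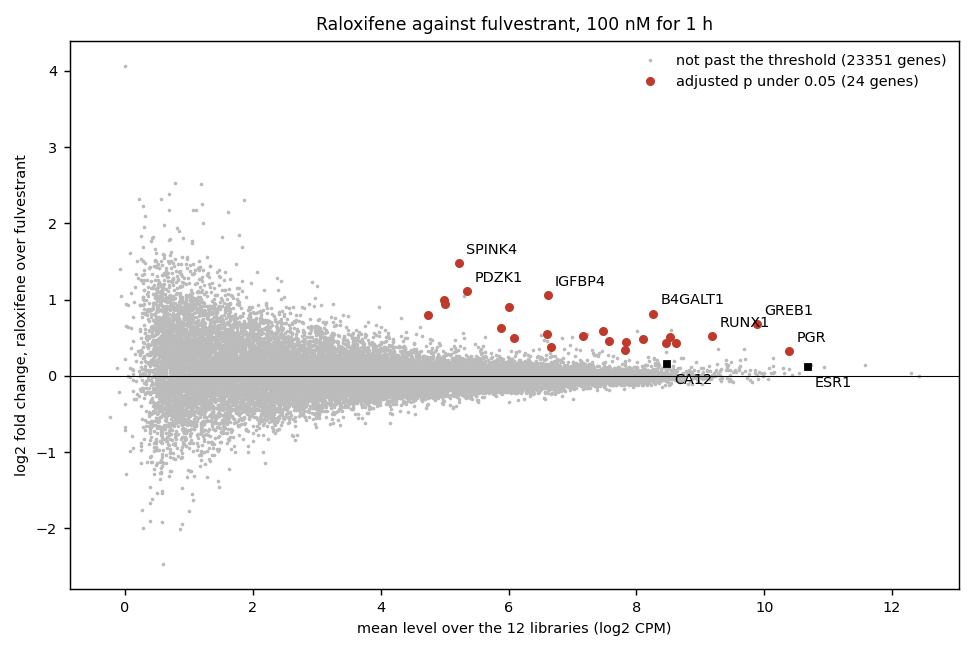
Log2 fold change of raloxifene over fulvestrant (y axis) against the mean level over the 12 libraries in log2 CPM (x axis), 1 point per tested gene. The 24 genes past the threshold (red) all lie above 0, up to 1.48 for SPINK4, and ESR1 and CA12 (black squares) lie close to 0 at 0.12 and 0.16.

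Among the 24, the largest difference was in SPINK4, a gene for a secreted serine peptidase inhibitor of the Kazal type. It had 34.3 and 44.0 CPM with raloxifene, against 13.9 and 13.3 CPM with fulvestrant. Raloxifene over fulvestrant was 1.48 ± 0.141 on the log2 scale (fit estimate ± its standard error, as for the values that follow; edgeR's adjusted p = 1.3e-05), or 2.78-fold. PDZK1 encodes a scaffold protein that anchors membrane transporters. Its level was 51.0 and 52.5 CPM with raloxifene and 20.4 and 27.7 CPM with fulvestrant, a difference of 1.11 ± 0.129 (edgeR's adjusted p = 0.00014). IGFBP4, a binding protein gene of insulin-like growth factors, had 72.7 and 82.8 CPM with raloxifene and 37.8 and 35.8 CPM with fulvestrant (1.06 ± 0.107, edgeR's adjusted p = 2.0e-05). In all 3 genes the lower raloxifene library was above the higher fulvestrant library, as in each of the 24 and in 15.2% of all genes tested.

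Among cofactors and receptors, GREB1, which encodes a chromatin-bound cofactor of the receptor and is among its best-known targets, had the smallest p-value of all genes tested. It was transcribed at 924 and 965 CPM with raloxifene, against 586 and 591 CPM with fulvestrant, a log2 fold change of 0.68 ± 0.053 (edgeR's adjusted p = 1.1e-06). NRIP1 encodes a corepressor that binds liganded nuclear receptors. It stood at 217 and 219 CPM with raloxifene and 170 and 174 CPM with fulvestrant (0.34 ± 0.066, edgeR's adjusted p = 0.048), just inside the threshold. PGR, the progesterone receptor gene, had 1246 and 1386 CPM with raloxifene and 998 and 1090 CPM with fulvestrant, the smallest difference of the 24 at 0.33 ± 0.058. The retinoic acid receptor gene RARA had 299 and 306 CPM with raloxifene and 226 and 221 CPM with fulvestrant (0.43 ± 0.065). FKBP4, which encodes a cochaperone of steroid receptors, was at 121 and 134 CPM with raloxifene and 91.9 and 84.5 CPM with fulvestrant (0.52 ± 0.074).

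ESR1, the gene of estrogen receptor alpha itself, did not pass. Its values were 1833 and 1851 CPM with raloxifene, against 1700 and 1690 CPM with fulvestrant, so the groups did not overlap. The log2 fold change was 0.12 with a 95% interval of 0.04 to 0.20 (edgeR's adjusted p = 0.84).

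Of the transcription factor genes, RUNX1, a runt-domain factor gene active in luminal cells, had 410 and 451 CPM with raloxifene and 296 and 300 CPM with fulvestrant (0.53 ± 0.053, edgeR's adjusted p = 2.0e-05). MYB, a proto-oncogene, had 58.1 and 63.8 CPM with raloxifene and 34.6 and 43.7 CPM with fulvestrant (0.63 ± 0.112). GATA4, a zinc-finger factor gene, had 28.7 and 35.8 CPM with raloxifene and 19.1 and 16.9 CPM with fulvestrant (0.80 ± 0.143). MYC, a growth-promoting factor gene, stayed outside the threshold at 78.7 and 90.2 CPM with raloxifene and 59.9 and 61.8 CPM with fulvestrant. Its estimate of 0.45 had a 95% interval of 0.23 to 0.67 (edgeR's adjusted p = 0.21). MYC passed the threshold in 3 of the 14 alternative analyses.

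Other genes among the 24 encode secreted, matrix or signalling proteins. CXCL12, a chemokine gene, had 54.2 and 70.2 CPM with raloxifene and 30.0 and 34.3 CPM with fulvestrant (0.91 ± 0.117, edgeR's adjusted p = 0.00048). SERPINA10, which encodes an inhibitor of coagulation proteases, had 33.0 and 28.1 CPM with raloxifene and 17.3 and 14.9 CPM with fulvestrant (0.95 ± 0.172, edgeR's adjusted p = 0.025). JAK1, a cytokine receptor kinase gene, had 398 and 404 CPM with raloxifene and 304 and 293 CPM with fulvestrant (0.43 ± 0.056). GNG11, a G protein subunit gene, and COL12A1, a collagen chain gene, differed by 0.50 ± 0.092 and 0.45 ± 0.085. The raloxifene libraries of CXCL12 were spread widely, at 62.2 ± 11.3 CPM (SD, n = 2), and those of fulvestrant less so, at 32.2 ± 3.0 CPM (SD, n = 2).

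Among genes for enzymes, PTGES, the prostaglandin E synthase gene, was at 32.3 and 34.4 CPM with raloxifene and 14.5 and 18.9 CPM with fulvestrant (0.99 ± 0.141, edgeR's adjusted p = 0.0016). B4GALT1, a galactosyltransferase gene, had 182 and 196 CPM with raloxifene and 105 and 108 CPM with fulvestrant (0.82 ± 0.073, edgeR's adjusted p = 6.4e-06). The inositol phosphate kinase gene ITPK1 differed by 0.58 ± 0.073, the lysophospholipid acyltransferase gene MBOAT1 by 0.55 ± 0.081 and the metallopeptidase gene AMZ1 by 0.51 ± 0.059. NHERF1, a scaffold gene of the same family as PDZK1, had 173 and 188 CPM with raloxifene and 129 and 134 CPM with fulvestrant (0.45 ± 0.073, edgeR's adjusted p = 0.0070). As in each of the 24, both raloxifene libraries exceeded both fulvestrant libraries in these 6 genes, as they did in 15.2% of all genes tested. No overlap was part of the rule that picked named genes, so it adds no support.

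**Figure D2:**
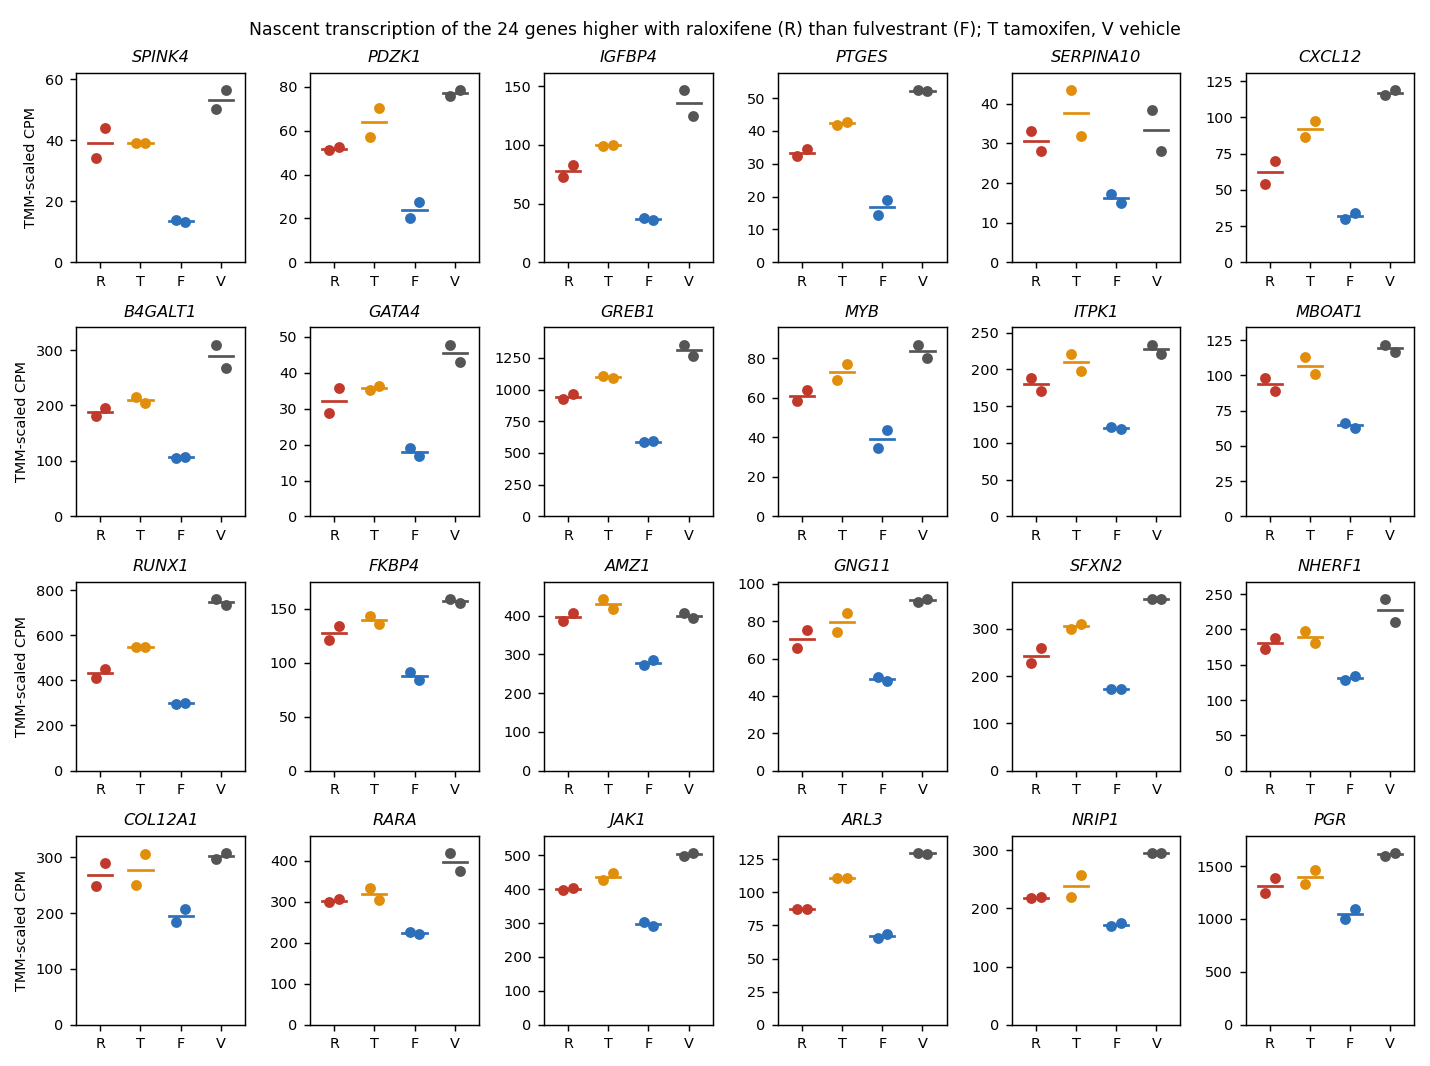
TMM-scaled CPM (y axis, from 0) of the 24 genes in each library with raloxifene (R), tamoxifen (T), fulvestrant (F) and vehicle (V) in complete medium; points are libraries and lines are means of 2. The fulvestrant points are the lowest in every panel, for example 586 and 591 CPM for GREB1 against 924 and 965 CPM with raloxifene.

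Vehicle levels place the 24 differences, with each drug's own comparison given side by side since these share libraries. Against vehicle, 0.479% of genes were lower with raloxifene and 1.05% with fulvestrant. GREB1 was at 1354 and 1266 CPM in vehicle, so it was lower by 0.47 on the log2 scale with raloxifene (edgeR's adjusted p = 4.2e-05) and lower by 1.15 with fulvestrant (edgeR's adjusted p = 3.1e-11). CXCL12 changed by -0.95 with raloxifene and by -1.86 with fulvestrant relative to vehicle. RUNX1 changed by -0.80 with raloxifene and by -1.33 with fulvestrant. In these genes raloxifene lay between fulvestrant and vehicle.

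A few of the 24 were not called between raloxifene and vehicle. AMZ1 had 386 and 406 CPM with raloxifene, 272 and 284 CPM with fulvestrant and 406 and 393 CPM with vehicle. Its change from vehicle was -0.02 with raloxifene, with a 95% interval of -0.14 to 0.10, and -0.52 with fulvestrant (edgeR's adjusted p = 1.1e-05). SERPINA10 changed from vehicle by -0.11 with raloxifene, where the 95% interval of -0.43 to 0.20 leaves room for a moderate fall, and by -1.06 with fulvestrant. COL12A1 changed by -0.18 with raloxifene (edgeR's adjusted p = 0.49) and by -0.63 with fulvestrant. SPINK4 and GATA4 narrowly missed the threshold with raloxifene, at -0.49 and -0.54 (edgeR's adjusted p = 0.055 and 0.051), and passed with fulvestrant at -1.96 and -1.34.

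Tamoxifen, a triphenylethylene modulator, was given at the same dose and time. In all, 3 pairs of drugs were tested, and p-values were adjusted over genes within each pair. Adjusted over the 3 pairs together, an adjustment added after the data were seen, 27 genes were higher with raloxifene than with fulvestrant, including the 24. With tamoxifen 0.453% of genes were higher than with fulvestrant, and all 24 genes were among them. Both pairs use the same fulvestrant libraries, so this overlap is not independent. GREB1 had 1110 and 1088 CPM with tamoxifen, 0.90 above fulvestrant (edgeR's adjusted p = 3.2e-09), and the raloxifene level was 0.22 below the tamoxifen level without passing (edgeR's adjusted p = 0.74). A single gene passed between raloxifene and tamoxifen, RUNX1, with 410 and 451 CPM with raloxifene and 548 and 548 CPM with tamoxifen (-0.35, edgeR's adjusted p = 0.024), or 0.00428% of genes tested. CXCL12 differed by -0.61 between raloxifene and tamoxifen and did not pass (edgeR's adjusted p = 0.063).

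Estradiol given to starved cells provides a measure from libraries that neither drug shares. All 24 genes rose with estradiol, where 5.04% of all genes tested did, and 22 rose at least 2-fold, against 1.24% of all genes tested. Their median log2 fold change with estradiol was 1.70, against -0.01 over all genes. GATA4 rose by 3.25 ± 0.198 and IGFBP4 by 3.21 ± 0.098, while GNG11 (0.97 ± 0.089) and COL12A1 (0.88 ± 0.087) rose by less than 2-fold. Seen from the other side, the 24 genes were 2.04% of the 1177 genes that estradiol raised.

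Genes were also sorted by their estradiol response, and the groups are described here with no test. Among the 289 genes that estradiol raised at least 2-fold, the median log2 fold change of raloxifene over fulvestrant was 0.23. Both raloxifene libraries exceeded both fulvestrant libraries in 156 of them (54.0%), and the reverse held in 9 (3.11%), where all genes tested gave 15.2% and 15.9%. Among 888 genes raised by less than 2-fold the median was 0.04, with 261 (29.4%) higher and 107 (12.05%) lower without overlap. The 874 genes that estradiol lowered (3.74%) went the other way by a small amount, with a median of -0.04, 67 (7.67%) higher and 237 (27.1%) lower without overlap, and none of them past the test. Over all genes tested the median was 0.0019.

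**Figure D3:**
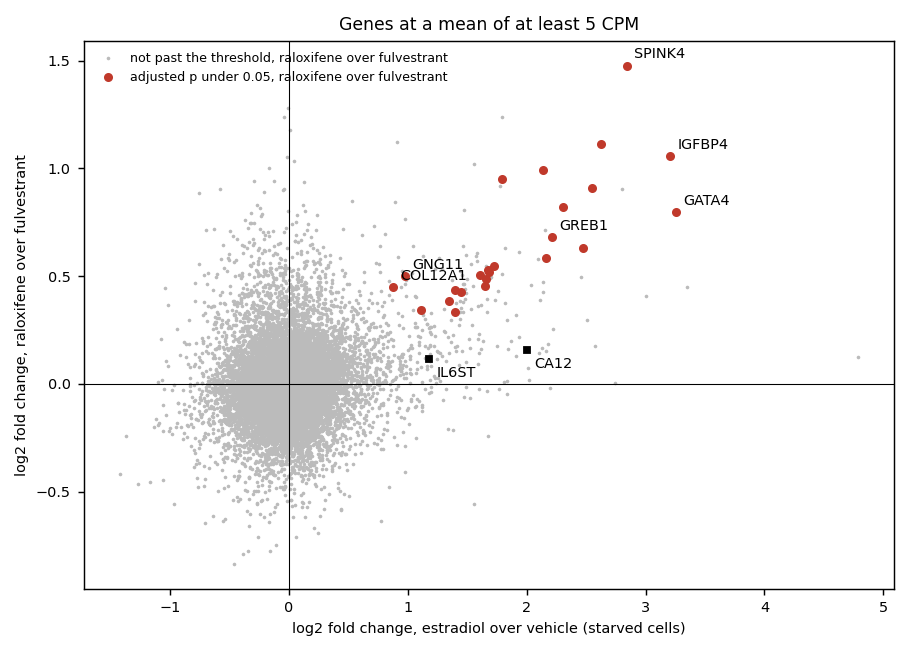
Log2 fold change of raloxifene over fulvestrant in complete medium (y axis) against that of estradiol over vehicle in starved cells (x axis), for genes at a mean of at least 5 CPM and the 24 genes past the threshold (red). The 24 genes lie between 0.88 and 3.25 on the x axis, and CA12 and IL6ST (black squares) lie at 2.00 and 1.18 with y values of 0.16 and 0.11.

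Lists of genes of known function were described by their counts, and 0.103% of all genes tested is the background for each. In the estrogen-induced list, which was drawn up with results on these libraries known, 14 of 53 tested genes were higher with raloxifene, 0 were lower and 39 did not pass. Of the 53, 48 had estimates above 0, as did 50.5% of all genes tested, and the list's median was 0.30. RBBP8, a DNA repair gene, was next outside the threshold among them at 139 and 152 CPM with raloxifene and 104 and 115 CPM with fulvestrant (0.40 ± 0.083, edgeR's adjusted p = 0.082). STC2, a stanniocalcin gene, differed by 0.35 ± 0.075 and the cathepsin gene CTSD by 0.50 ± 0.115 (edgeR's adjusted p = 0.10 and 0.21). IGF1R, the growth factor receptor gene, had an estimate of 0.21 with a 95% interval of 0.11 to 0.30 (edgeR's adjusted p = 0.11).

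Other estrogen-induced genes showed little or no difference between the drugs although each drug lowered them. CA12, a carbonic anhydrase gene, had 260.5 and 273 CPM with raloxifene, 236 and 241 CPM with fulvestrant and 417 and 391 CPM with vehicle. Its log2 fold change between the drugs was 0.16 with a 95% interval of 0.05 to 0.27, while its changes from vehicle were -0.60 with raloxifene and -0.76 with fulvestrant. IL6ST, the shared receptor subunit of interleukin-6 cytokines, had 149 and 154 CPM with raloxifene, 134 and 145 CPM with fulvestrant and 227 and 236 CPM with vehicle. The interval of its difference between the drugs was -0.03 to 0.26. FHL2, a LIM-domain cofactor gene, differed by 0.18 with an interval of 0.06 to 0.29. All 3 intervals exclude a difference as large as the 0.68 of GREB1.

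HEY2, a Notch-pathway repressor gene, had 6.71 and 9.08 CPM with raloxifene, 8.08 and 7.37 CPM with fulvestrant and 17.5 and 17.9 CPM with vehicle. The drugs overlapped, and the 95% interval of -0.50 to 0.43 is wide at this level. CCND1, the cyclin D1 gene, had an estimate of 0.25 with an interval of 0.01 to 0.49 and overlapping libraries (edgeR's adjusted p = 0.98). XBP1, a secretory-stress factor gene, had an estimate of 0.10 with an interval of -0.09 to 0.30. TFF1, the trefoil factor gene often used as an estrogen marker, had 5 and 3 counts with raloxifene and 0 and 2 counts with fulvestrant and did not pass the low-count filter.

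**Figure D4:**
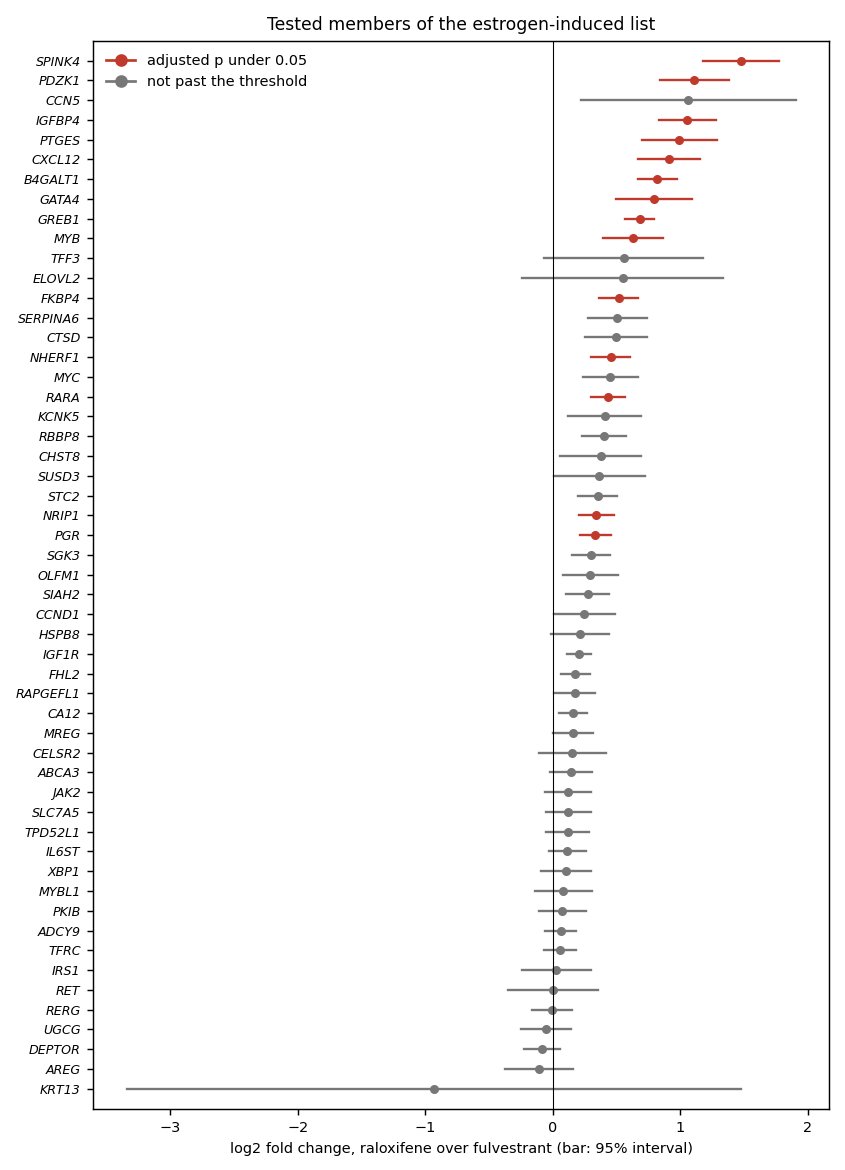
Log2 fold change of raloxifene over fulvestrant (x axis) with its 95% interval (bars) for the 53 tested estrogen-induced genes (rows); red marks the 14 genes past the threshold. Estimates run from -0.93 for KRT13, whose interval is the widest, to 1.48 for SPINK4.

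In the remaining lists few genes passed. Of 32 nuclear receptor genes 2 were higher, PGR and RARA, and of 27 receptor cofactor genes 2 were, GREB1 and NRIP1. RUNX1 was the 1 of 21 luminal factors, IGFBP4 and CXCL12 the 2 of 31 growth factor, receptor and ligand genes, and FKBP4 the 1 of 22 heat shock and steroid receptor chaperone genes. Of 25 estrogen-repressed genes none passed (median -0.09). In starved cells given estradiol, BCL6 (0.56), IGFBP5 (0.47) and KLF4 (0.40) of this list had positive estimates and its other members negative ones. Nor did any gene pass among 42 immediate-early genes (median -0.08), 21 Notch genes (-0.06) or 28 TGF-beta and BMP genes (-0.03). None passed among 31 G1/S genes (-0.03) or 22 G2/M genes (-0.02). The same held for 35 ribosome biogenesis genes (0.05), 29 cholesterol and fatty acid genes (-0.02), 24 unfolded protein response genes (0.07), 19 p53 targets (-0.01) and 14 BCL2-family genes (-0.04). No gene passed among 20 interferon genes (-0.03), 21 progestin, androgen and glucocorticoid targets (-0.08), 5 stromal, endothelial and blood markers (0.18), 14 basal and mesenchymal markers (0.05) or 20 housekeeping genes (0.01). All 31 G1/S, 35 ribosome biogenesis and 20 housekeeping genes had 95% intervals within a 2-fold difference in either direction. So did 76.5% of all genes tested and 99.4% of those with a mean of at least 50 counts, so this is no trait of these lists.

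No gene was lower with raloxifene than with fulvestrant by the test. The smallest p-value in that direction, where counts averaged at least 50 and the groups did not overlap, belonged to TM4SF18-AS1, an antisense RNA gene. It had 131 and 128 CPM with raloxifene and 160 and 151 CPM with fulvestrant (-0.26, 95% interval -0.39 to -0.14; edgeR's adjusted p = 0.21). LITAF, which encodes a protein of late endosomes, followed at 57.8 and 53.1 CPM with raloxifene and 75.3 and 66.7 CPM with fulvestrant (-0.34, 95% interval -0.52 to -0.17; edgeR's adjusted p = 0.32). Over the 14401 genes with a mean of at least 50 counts, 14397 had a 95% interval that excluded a 2-fold lower level with raloxifene, and 12043 (83.6%) had an interval within 0.5 on the log2 scale in either direction.

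Several of the 24 genes lay close to one another in the genome (GRCh38.p14 positions of RefSeq, the same assembly as the hg38 build of the counts). Of the 24, 6 (25%) had another of the 24 within 500 kb, and 223 of 18470 other tested genes with a position (1.21%) lay that close to one of the 24. SPINK4 (chromosome 9, 33240167 to 33248567) and B4GALT1 (33104077 to 33185089) were 55078 bases apart. BAG1, a cochaperone gene beside SPINK4, had an estimate of 0.24 ± 0.090 and did not pass (edgeR's adjusted p = 0.97). RARA (chromosome 17, 40309180 to 40357643) and IGFBP4 (40443450 to 40457725) were 85807 bases apart, and RAPGEFL1 on the other side of RARA had an estimate of 0.17 ± 0.078 (edgeR's adjusted p = 0.98). SERPINA6, the corticosteroid-binding globulin gene beside SERPINA10 on chromosome 14, had 71.9 and 96.8 CPM with raloxifene and 52.2 and 63.1 CPM with fulvestrant (0.51 ± 0.111, edgeR's adjusted p = 0.13). Near RUNX1 on chromosome 21, the non-coding gene LINC00160 had an estimate of 0.91 ± 0.228 (edgeR's adjusted p = 0.33). The chloride channel gene CLIC6 there had 0.24 ± 0.155, with an interval of -0.08 to 0.57. Other neighbours that estradiol raised had estimates slightly below 0. They include SERPINA1 near SERPINA10 (-0.076 ± 0.139), B4GALT1-AS1 within B4GALT1 (-0.016 ± 0.197) and TNS4 beside IGFBP4 (-0.022 ± 0.093). Among 78 other tested genes within 100 kb of the 24, 55 had estimates above 0 and the median was 0.08, where 50.5% of all genes tested were above 0 and their median was 0.0019. The 78 include genes that overlap a member of the 24, such as LINC01359 within JAK1. Without a stated strand, their counts may hold reads of that member.

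**Figure D5:**
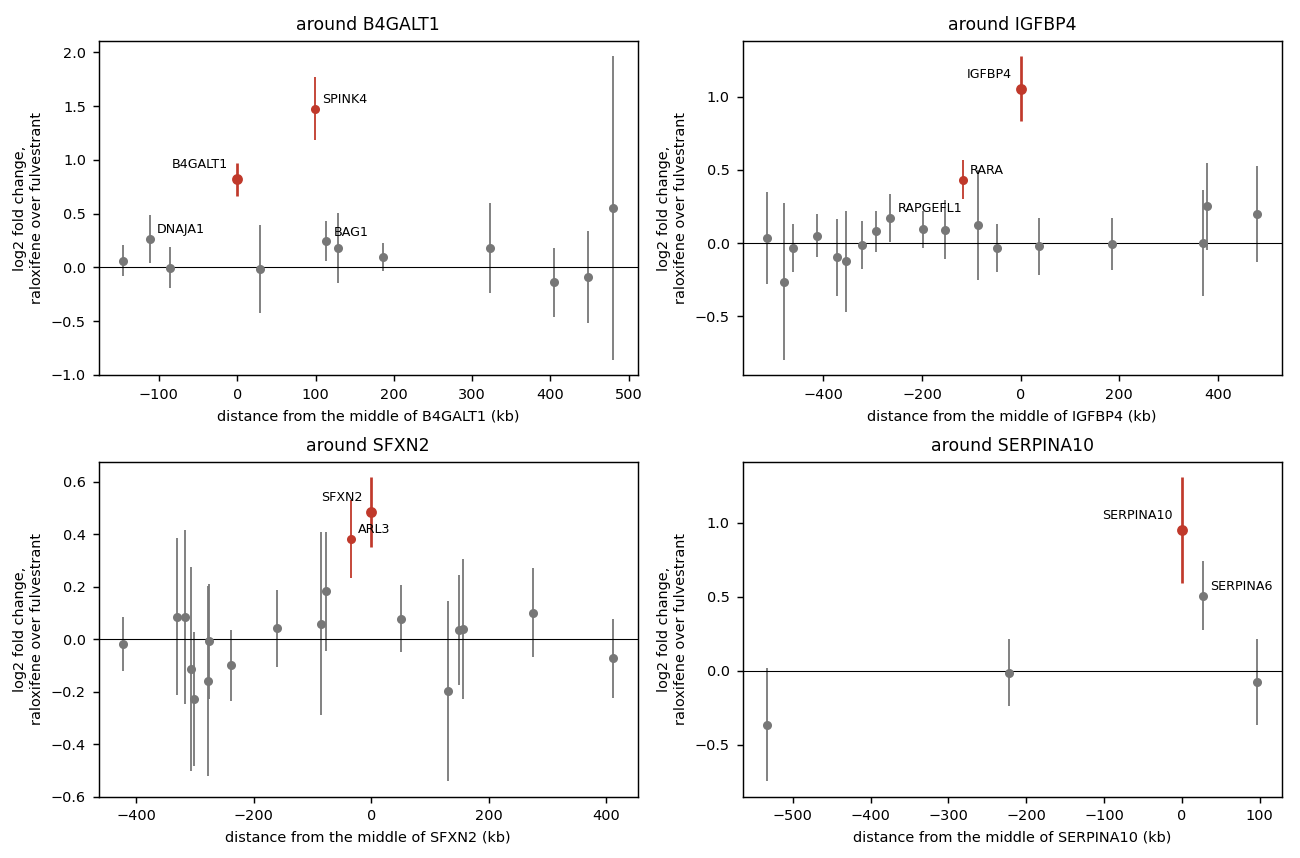
Log2 fold change of raloxifene over fulvestrant with its 95% interval (y axis) for tested genes at 5 CPM or more around B4GALT1, IGFBP4, SFXN2 and SERPINA10, against the distance between gene middles in kb (x axis). Red points passed the threshold, and each panel holds neighbours near 0 as well as the genes that passed.

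The closest pair was SFXN2, a mitochondrial carrier gene (chromosome 10, 102714636 to 102743492, plus strand), and ARL3, a small GTPase gene of cilia (102673731 to 102714397, minus strand). Their starts were 239 bases apart and they are transcribed away from each other. SFXN2 had 227 and 259 CPM with raloxifene and 172 and 173 CPM with fulvestrant (0.49 ± 0.063, edgeR's adjusted p = 0.00054). ARL3 had 87.1 and 87.5 CPM with raloxifene and 65.4 and 68.5 CPM with fulvestrant (0.38 ± 0.072, edgeR's adjusted p = 0.035). The stretch that holds both starts is shown because 1 window serves 2 genes that passed together. It is chr10:102714386-102714685 on the plus strand from RefSeq, with the first 10 transcribed bases of each gene in capitals, those of ARL3 read on the opposite strand.
SFXN2: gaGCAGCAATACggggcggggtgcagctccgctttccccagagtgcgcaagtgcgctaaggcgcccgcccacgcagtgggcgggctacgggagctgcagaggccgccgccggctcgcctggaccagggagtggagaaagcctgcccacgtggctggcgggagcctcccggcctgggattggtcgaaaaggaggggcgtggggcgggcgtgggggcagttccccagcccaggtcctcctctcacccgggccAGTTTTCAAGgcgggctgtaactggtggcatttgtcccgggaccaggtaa

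Promoter windows from 250 bases before to 50 bases after a RefSeq start were found for 20 of the 24 genes, as 33 windows. The full estrogen response element, GGTCA and its reverse complement TGACC with 3 free bases between them, was found in 0 of the 33, exactly or with 1 mismatch among its 10 fixed bases. Of the 19623 windows of tested genes, 0.051% held it exactly and 0.561% with up to 1 mismatch. A single arm of the element, GGTCA, which lies within the full element and was searched on both strands, occurred in 12 of the 33 windows (36.4%) and in 34.9% of the windows of tested genes, so the windows of the 24 genes were close to the background. The windows of the 3 genes with the largest differences that hold the arm GGTCA are shown so that its place can be seen, 5′ to 3′ on the gene's strand, with the arm in capitals. They are PDZK1 at chr1:145707351-145707650, SERPINA10 at chr14:94293219-94293518 and CXCL12 at chr10:44385048-44385347, all on the minus strand. A match describes letters only, and its absence applies to this window alone.
PDZK1: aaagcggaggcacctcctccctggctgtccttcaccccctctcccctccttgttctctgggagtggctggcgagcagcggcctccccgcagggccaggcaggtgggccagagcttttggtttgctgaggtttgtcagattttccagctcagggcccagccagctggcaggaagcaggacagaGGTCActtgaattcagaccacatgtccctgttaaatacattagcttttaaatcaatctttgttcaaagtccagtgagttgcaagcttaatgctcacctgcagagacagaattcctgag
SERPINA10: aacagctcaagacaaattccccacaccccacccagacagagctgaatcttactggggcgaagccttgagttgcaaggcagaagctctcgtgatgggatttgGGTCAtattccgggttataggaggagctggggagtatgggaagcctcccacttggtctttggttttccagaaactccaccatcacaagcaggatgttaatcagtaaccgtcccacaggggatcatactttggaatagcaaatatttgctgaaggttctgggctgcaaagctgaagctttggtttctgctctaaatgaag
CXCL12: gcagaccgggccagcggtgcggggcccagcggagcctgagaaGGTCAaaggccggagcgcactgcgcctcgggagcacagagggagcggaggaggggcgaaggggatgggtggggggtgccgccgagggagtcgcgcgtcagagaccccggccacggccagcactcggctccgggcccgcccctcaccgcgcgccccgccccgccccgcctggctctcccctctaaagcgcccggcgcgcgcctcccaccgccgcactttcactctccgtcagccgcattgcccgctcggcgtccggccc

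The count of 24 depended on single libraries. Without raloxifene library 3 the count was 168, of which 21 were among the 24, and with the other libraries left out in turn it was 19 without raloxifene library 4, 14 without fulvestrant library 3 and 14 without fulvestrant library 4, with 0 lower each time. Without the low-count filter 89 genes were higher and 1 lower, and with the library number as a block, although no pairing is stated, the counts were 75 and 2. All 24 estimates stayed above 0 in each of the 14 alternatives, and 11 of the 24 passed the threshold in every one. These 11 were GREB1, SPINK4, IGFBP4, B4GALT1, PDZK1, RUNX1, CXCL12, ITPK1, AMZ1, SFXN2 and JAK1. That the signs held says little, since both raloxifene libraries exceeded both fulvestrant libraries in each of the 24. Leaving out 1 library could hardly reverse a sign, and the adjustment over pairs of drugs reused the same estimates. NRIP1 and ARL3 were the least stable, each below the threshold in 8 alternatives. The strand setting of the counting is not given, so RARA, RUNX1, ITPK1, B4GALT1, PGR, FKBP4 and NHERF1, which RefSeq antisense genes overlap, and JAK1, AMZ1, GNG11, MYB, GREB1, GATA4 and COL12A1, which other genes overlap (small RNA genes in the last 3), may include reads of those genes.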

How the data were processed

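The authors deposited raw counts for each Ensembl gene ID, with no normalization applied. Build hg38, Bowtie2 2.4.4, SAMtools 1.9 and cutadapt 1.8.1 are named in the submitters' processing notes. The sources used here do not give the counting tool, annotation, strand setting or region counted, and promoter-proximal and gene-body polymerase were not separated. Of 60605 IDs, 60463 had a symbol. Where IDs shared a symbol the one with the highest total was kept, which dropped 1195 IDs with 0.0741% of counts. In edgeR 4.0.16 (R 4.3.3), filterByExpr, TMM scaling and a quasi-likelihood fit of the 6 groups over all 12 libraries were used, with Benjamini-Hochberg adjustment over 23375 genes and a threshold of 0.05. DESeq2 1.42.0 served as an alternative. Standard errors were derived from the test statistic and the log2 fold change before edgeR's shrinkage for small counts. Intervals use these errors and are centred on the shrunken estimate given in the text, so they are approximate for genes of low count. Scripts were tested on simulated data. The libraries of a group were not copies of each other. Chi-square per gene, over genes with at least 20 counts, was 2.34 in the raloxifene pair, the highest of the 6. It was 1.65 in the fulvestrant pair and 1.2 in the lowest. These values cannot tell separate cultures from repeat sequencing of the same sample. Depth ran from 3682311 to 7856803 counts per library, and the thinner libraries give wider spread for genes of low count. Reads copied by PCR may be counted more than once.

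The genes and the 22 lists were chosen with earlier results of these data known. Named genes were the 15 with the largest difference in each direction past the threshold (mean of at least 50 counts, no overlap), up to 4 passing members per list, and always CLIC6, HEY2, CXCL12, ESR1, IGFBP4, NRIP1, XBP1, GREB1, RARA, PGR, CCND1, TFF1, MYC and PDZK1. The rest of the 24, and other genes named for a small p-value, a neighbouring position or a small difference, were chosen after their values were seen.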

Additional observations from a re-analysis of the deposited data

How the results depend on the processing

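The alternatives were relative log expression factors, library totals without TMM, 2 other low-count filters, DESeq2, fits to 4 or to 8 libraries, the replicate block, thinning to the shallowest library, leaving out each of the 4 libraries in turn, and, added after the data were seen, adjustment over the 3 pairs of drugs. The 24 genes higher with raloxifene became 89 without the low-count filter and 75 with the replicate block, and 14 to 168 when a library was left out. The 0 lower genes became 1 without the filter (ARRDC3, at -0.31 in the full fit) and 2 with the block (LITAF and TM4SF18-AS1), and stayed at 0 in every other alternative, leaving out a library included. The cause was not tested. With the other settings the higher count ran from 18 to 29. Of the values of the 24 genes under alternatives, 286 kept their side of the threshold and 50 fell below it. Among named genes outside the threshold, 14 passed in at least 1 alternative, 41 values in all, led by RAB30 (6), SERPINA6 (5), and RBBP8, STC2, CALCR and TMEM104 (4 each). Estimates that changed sign were near 0 and never passed: XBP1 ran from -0.066 (without raloxifene library 4) to 0.29 when a library was left out, and HEY2 from -0.21 to 0.23 (above 0 without raloxifene library 3 or fulvestrant library 3), with 0.039 after thinning. Deviations of same-numbered libraries from their group means correlated across genes at 0.33 between raloxifene and fulvestrant and at 0.099 to 0.42 over all 15 pairs of groups, each above 0. Genes are not replicates, and with 2 numbers and no stated batch this is a hint from the data that same-numbered libraries deviate together, not a pairing in the design. In each of the 6 groups library 3 was also deeper than library 4, so number and depth cannot be told apart. Depth limits genes of low level: 76.5% of all tested genes, and 99.4% of those with a mean of at least 50 counts, had a 95% interval within a 2-fold difference.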

Other observations

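A few genes just outside the threshold are given as values. PRRX2-AS1, an antisense RNA gene 19643 bases from PTGES on chromosome 9, lies within the span of PRRX2. Without a stated strand its reads cannot be told from those of PRRX2. The counts assigned to PRRX2 gave an estimate of -0.14 ± 0.238. PRRX2-AS1 had 6.08 and 4.68 CPM with raloxifene and 0.485 and 1.798 CPM with fulvestrant. Its log2 fold change was 2.31 ± 0.479 (edgeR's adjusted p = 0.082), on only 3 and 10 counts with fulvestrant. It rose with estradiol by 2.38 ± 0.592, from 6 and 2 counts with starved vehicle. CALCR, the calcitonin receptor gene, lay 347011 bases from GNG11 on chromosome 7. It had 19.6 and 23.4 CPM with raloxifene and 12.1 and 12.6 CPM with fulvestrant (0.76 ± 0.158, edgeR's adjusted p = 0.082). RAB30, a small GTPase gene of the Golgi, had 167 and 177 CPM with raloxifene, 131 and 140 CPM with fulvestrant and 165 and 170 CPM with vehicle (raloxifene over fulvestrant 0.34 ± 0.069, edgeR's adjusted p = 0.073). Among 58 genes that estradiol raised at least 4-fold, 10 (17.2%) were among the 24 genes higher with raloxifene, against 0.103% of all genes tested. Their median difference between the drugs was 0.37, against 0.0019 over all genes.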
